A study of Mus musculus with 24 samples.

Results

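The protein components of the cytosolic ribosome were followed across 8 sorted myeloid populations of mouse colon. They were taken from the expression table by symbol, as protein-coding genes named Rpl or Rps with a number (and an a, x or y where one follows), Rplp0 to Rplp2, and Rpsa. The rule took 76 of the 17301 genes in the table, of which 30 belong to the small subunit, 43 to the large subunit and 3 to the P stalk. A mean of at least 1 RPKM (the reads of a gene scaled by its length in kilobases and by library size) in at least 1 population was required for testing, which 75 of the 76 genes and 12878 genes in all met. The gene not tested was Rpl23a, a large subunit protein with 0 to 36 reads in a library. The rule used no measured values.

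The study set myeloid cells of colon tumours against their counterparts in the healthy colon lamina propria (LP). Sorted cells gave 24 RNA-seq libraries, 3 in each of 8 groups. F4/80hi macrophages were divided into MHCIIhi and MHCIIlow cells, and Ly6Chi MHCII- monocytes and Ly6Ghi neutrophils were sorted beside them, from LP and from tumour. LP libraries came from C57/BL mice and tumour libraries from APC/Min mice, which carry a germline mutation of the tumour suppressor Apc and grow intestinal polyps. Tissue of several mice was pooled for each sort, so a Roman numeral below names a pool and the p-values measure the spread between pools. The study's methods describe dextran sodium sulphate, a colitis-inducing agent, for Apc Min/+ and for C57BL/6J control mice, whereas the labels call the LP healthy and name no treatment. Its methods also isolate cells differently, with an EDTA step for LP and DNase I in the digest of tumours. Apc genotype, any difference of strain background, tissue, cell isolation and any difference in that treatment therefore cannot be told apart in a tumour against LP comparison. In sorted pools, fewer cells of a type and less RNA per cell cannot be told apart either.

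A ribosome joins a small subunit, which reads the mRNA, with a large subunit, which forms the peptide bond, and each of its proteins is present in 1 copy apart from those of the stalk. Their mRNAs begin with a run of pyrimidines at the cap, the terminal oligopyrimidine motif, through which growth signalling by mTOR sets how strongly they are translated. Mature neutrophils leave the marrow after division has stopped, with condensed nuclei and much of their cargo already made, whereas monocytes and resident macrophages go on to make large amounts of new protein.

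Transcript starts were searched for that motif, a C followed by at least 4 further C or T letters on the coding strand that opened within 3 bases of the annotated start. RefSeq gave a promoter for 56 of the 76 genes in GRCm38.p6, and 23 of these (41.1%) held such a run, against 3651 of 27025 genes in all (13.5%). The motif stands for a rule on letters and not for a measured cap site. The lines show 30 bases around RefSeq starts, with 15 before and 15 from the start onward and the run in capitals. Rps27, Rps9, Rps18, Rpl12, Rpl13a and Rpl28 had a run and are described in the comparisons that follow, Rps9 for its place relative to the family.
Rps27 (chr3:90213634-90213663, minus strand): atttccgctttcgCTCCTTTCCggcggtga
Rps9 (chr7:3704026-3704055, plus strand): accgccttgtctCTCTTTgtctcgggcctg
Rps18 (chr17:33955651-33955680, minus strand): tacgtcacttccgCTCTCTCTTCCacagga
Rpl12 (chr2:32961697-32961726, plus strand): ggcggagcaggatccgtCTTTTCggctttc
Rpl13a (chr7:45128731-45128760, minus strand): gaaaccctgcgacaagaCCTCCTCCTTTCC
Rpl28 (chr7:4792950-4792979, plus strand): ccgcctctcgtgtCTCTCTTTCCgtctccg
Rpl10a, Rpsa, Rps4x and Rpl4, also described there, had no such run at the start RefSeq gives.
Rpl10a (chr17:28328456-28328485, plus strand): gtggcgcccccccagcggccgcaaactgca
Rpsa (chr9:120127751-120127780, plus strand): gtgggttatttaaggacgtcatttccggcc
Rps4x (chrX:102189377-102189406, minus strand): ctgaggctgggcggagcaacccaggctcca
Rpl4 (chr9:64173372-64173401, plus strand): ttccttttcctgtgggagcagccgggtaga
The pyrimidines of Rpl4 lie ahead of its RefSeq start, where the search did not count them. With or without a run the genes differed little in the comparisons: the median log2 difference of neutrophils from monocytes in tumour was -1.72 over the 23 genes with a run and -1.66 over the 33 without, and for tumour against LP MHCIIhi macrophages it was 0.73 and 0.66.

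Depth ranged from 12.8 to 41.7 M reads on genes, with a median of 26.4 M. Summed markers of neutrophils, macrophages and monocytes were each highest in their own population. Summed RPKM of 7 neutrophil markers lay between 11604 and 15083 in neutrophils of the LP and between 21654 and 30625 in those of tumours, against at most 301 in any other library, and 7 macrophage markers summed to at least 4207 in macrophages and at most 1119 elsewhere. A set of 6 monocyte markers summed to between 858 and 1281 in monocytes of the LP and between 2769 and 3490 in those of tumours. Elsewhere it reached 657, in tumour neutrophils. Its member Ly6c2 was at 5.43 to 6.44 log2 RPKM in LP monocytes and 5.41 to 5.88 in LP neutrophils. H2-Ab1, an MHC class II gene, was at 13.11 to 13.36 in LP MHCIIhi and 6.67 to 9.48 in LP MHCIIlow macrophages. In tumour it was at 11.95 to 13.22 and 8.49 to 11.05. Transcripts of other cells also differed with the tissue in some populations. Epithelial markers summed to 6.81 to 19.9 RPKM in LP and 9.84 to 73.1 in tumour MHCIIhi macrophages, with overlap. MHCIIlow macrophages had 24.8 to 29.2 in LP and 15.6 to 222 in tumour, and monocytes 19.9 to 213 and 114 to 346, also with overlap. Neutrophils had 16.2 to 74.3 in LP and 168 to 342 in tumour. B and plasma cell markers summed to 358 to 1300 in LP neutrophils and at most 20.1 in tumour neutrophils. In monocytes the B and plasma cell markers went from 157 to 575 in LP to 0.192 to 4.68 in tumour. Fibroblast markers summed to 6.83 to 62 RPKM over the LP libraries and to at most 1.57 in any tumour library, and in MHCIIlow macrophages monocyte markers went from 126 to 453 in LP to 13.1 to 24.4 in tumour. Their part in the results below was not tested.

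Within the family, transcript levels spread over a wide range. The highest mean log2 RPKM over the 24 libraries belonged to Rpl4, a large subunit protein of the exit tunnel, at 8.54, and to Rplp0, the base of the P stalk that recruits translation factors, at 8.20. Rpl8 (6.36), Rpl10 (5.95) and Rpl3 (5.78), all of the large subunit, came next. The lowest were Rpl31 (0.73), Rpl35 (0.59), Rps15a (0.53), Rpl36a (0.27) and Rpl23a (-1.42). The median gene of the family stood at 3.28 and the median of all genes tested at 1.51. By part of the ribosome, the median log2 RPKM was 3.54 for the small subunit, 2.68 for the large subunit and 4.77 for the P stalk. These proteins enter the ribosome in equal numbers, apart from those of the stalk. What sets the range of RPKM was not tested.

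Most of these genes have near-identical copies. Of the 51-base stretches of each mRNA, the length of 1 read, a median of 61.6% also occurred in a transcript of another gene, up to 98.6% for Rps27, and 75 of the 76 genes shared a stretch with a pseudogene. How reads that match several genes were handled is not given in the sources used here, so single values of such genes are uncertain. The 51 genes with more than 50% shared had a median level of 3.05 log2 RPKM and the other 25 had 3.72, and Spearman's rho of level with the shared percentage was -0.07 over 76 genes. In 37 genes the length used for RPKM, recovered from the deposited values, was more than 2 times the mRNA length, such as 6262 against 640 bases for Rps15a, and rho of level with that ratio (as log2) was -0.43. Levels of single genes are therefore compared between libraries for the same gene in what follows. Family medians and shares of summed RPKM mix genes with unlike counted lengths. They serve to compare libraries, and such a share is not a share of transcripts.

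By its library median the family was lowest in neutrophils, and tumour macrophages lay above LP macrophages of the same subset, while tumour and LP monocytes overlapped. The median log2 RPKM of the 75 tested genes was 2.53, 2.11 and 2.62 in LP neutrophil pools III, IV and V and 2.35, 2.55 and 1.84 in tumour neutrophil pools I, II and V. No other library was below 2.96. LP MHCIIhi macrophages had 2.96, 3.09 and 3.21 (pools III, IV and V), LP MHCIIlow macrophages 3.28, 3.42 and 3.26 (II, III and IV), and LP monocytes 3.29, 3.62 and 3.28 (III, IV and V). Tumour MHCIIhi macrophages had 3.71, 3.30 and 4.36 (pools I, V and VII), tumour MHCIIlow macrophages 3.64, 3.84 and 3.97 (I, V and VII), and tumour monocytes 4.04, 3.71 and 3.37 (I, II and V). The groups thus ran from 2.25 ± 0.37 in tumour neutrophils to 3.82 ± 0.16 in tumour MHCIIlow macrophages (SD, n = 3 each), with a pooled SD of 0.295 between libraries of a group. Pool VII of tumour MHCIIhi macrophages stood apart from the other libraries of its group.

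**Figure D1:**
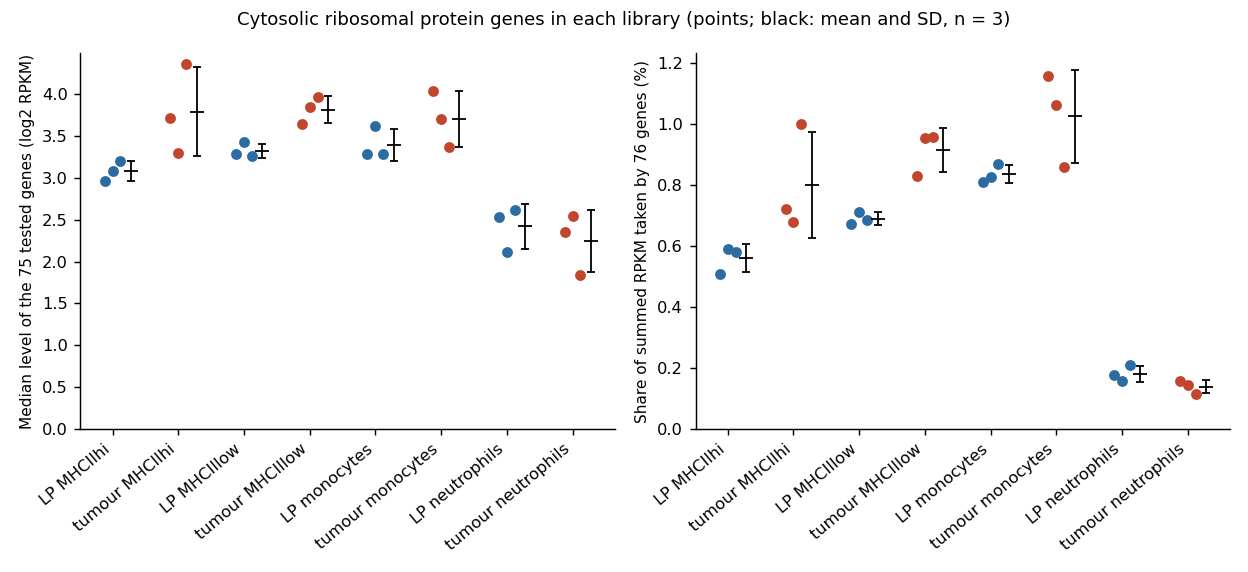
Median log2 RPKM of the 75 tested ribosomal protein genes (left) and share of summed RPKM taken by all 76 (right, %), 1 point per library, with the mean and SD of each group of 3 in black; the library medians lie between 1.84 and 2.62 in the 6 neutrophil libraries and between 2.96 and 4.36 in the other 18.

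As a share of the summed RPKM of all genes, ribosomal proteins took 0.181% ± 0.026 in LP neutrophils and 0.139% ± 0.0206 in tumour neutrophils (SD, n = 3 each). LP monocytes gave 0.836% ± 0.0307 and tumour monocytes 1.03% ± 0.153. LP MHCIIhi macrophages gave 0.560% ± 0.0458 and LP MHCIIlow macrophages 0.690% ± 0.0209, with 0.800% ± 0.175 and 0.915% ± 0.0727 for their tumour counterparts. No neutrophil library exceeded 0.208% and no other library was under 0.507%. In LP the order ran from MHCIIhi macrophages (0.507% to 0.591%) through MHCIIlow macrophages (0.672% to 0.713%) to monocytes (0.811% to 0.870%), without overlap between the 3 groups. With the 50 highest other genes left out, MHCIIhi (0.783% to 0.940%) and MHCIIlow macrophages (0.873% to 1.02%) overlapped, as did the library medians of MHCIIlow macrophages and monocytes.

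Library scaling touched these levels. The library size implied by the deposited values was 0.466 to 0.682 times the reads on genes in neutrophil libraries and 0.981 to 1.51 times in the others, which sets neutrophil values higher than a scaling to reads would. The median over all genes tested was 1.21 to 1.55 log2 RPKM in neutrophils and 1.64 to 1.87 in the other libraries. With sizes set to the reads on genes, the difference between neutrophils and monocytes widened. Leaving out the 50 highest other genes, the share was 0.261% in LP neutrophils and 1.14% in LP monocytes, and 0.232% and 1.5% in tumour.

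Between LP neutrophils and LP monocytes, 46 of the 75 genes were lower and 1 was higher in neutrophils (limma, Benjamini-Hochberg adjusted p below 0.05, as in every count of calls below). Over all genes tested, 30.4% were lower and 24.1% higher. The median difference of the family was -1.10 on the log2 scale, and that of all genes tested was -0.24. In tumour, 60 of 75 were lower and 0 higher, with 34.9% and 23.3% of all genes, a family median of -1.64 and a median of all genes of -0.36. Both parts of the ribosome were lower: 20 of 30 small subunit genes and 24 of 42 large subunit genes fell in LP neutrophils, and 22 of 30 and 35 of 42 in tumour neutrophils. Of the 3 stalk proteins, 2 fell in LP and 3 in tumour. Rpl5 and Rpl11, which bring the 5S rRNA into the large subunit and also bind Mdm2, fell in both tissues. In both tissues 45 of the 75 genes were lower, against 22.6% of all genes tested, and the tissues share no library. They were 45 of the 46 called lower in LP and 45 of the 60 in tumour. Over all genes 2914 were called lower in both, of 3913 in LP and 4489 in tumour.

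The direction held under each scaling tried. The family median was -0.81 in LP and -1.19 in tumour with libraries centred on the median of all genes, with 36 and 52 genes lower. Quantile normalization gave -0.97 and -1.36, with 40 and 57 lower, and sizes set to summed reads gave -1.93 and -2.77, with 68 and 75 lower. The shift of the median of all genes under these scalings was 0.29 and 0.45 with centring, 0.12 and 0.25 with quantiles, and -0.80 and -1.09 with summed reads, for LP and tumour. That median was then 0.05 and 0.09 with centring, -0.12 and -0.11 with quantiles, and -1.05 and -1.45 with summed reads. The share of all genes called under these scalings is not given, so the counts also carry the scaling.

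**Figure D2:**
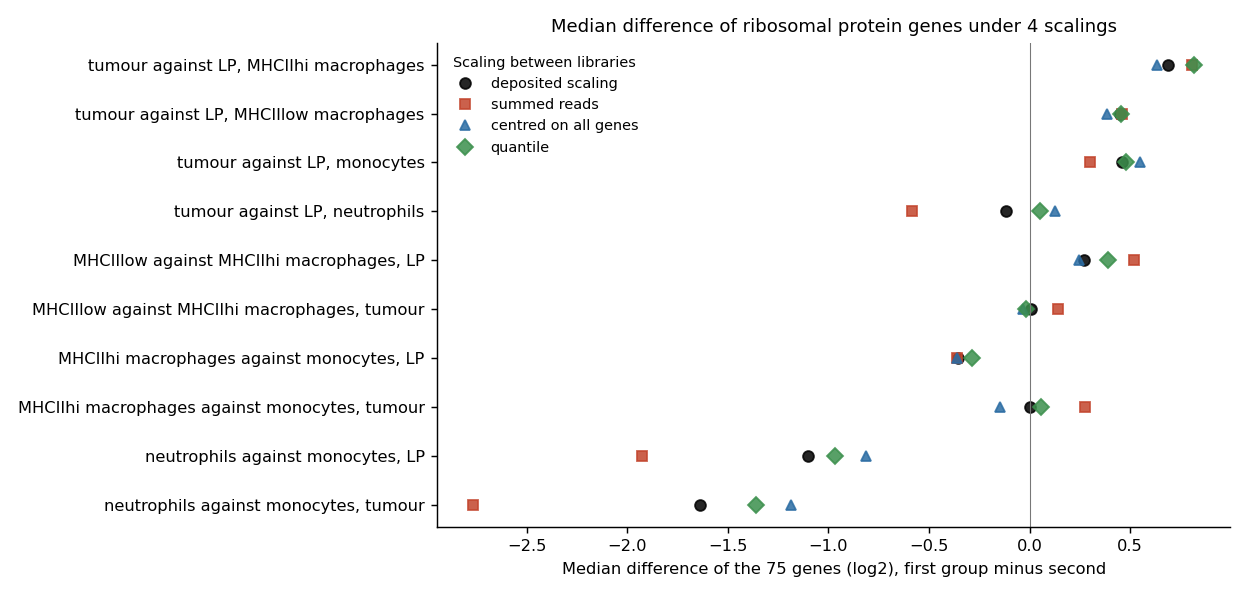
Median log2 difference of the 75 tested ribosomal protein genes, for each comparison, under the deposited scaling, centring on all genes, quantile normalization and summed reads; the neutrophil against monocyte medians range from -0.81 to -1.93 in LP and from -1.19 to -2.77 in tumour.

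Rpsa (chr9:120127689-120132369, plus strand, GRCm38), the small subunit protein also known as the laminin receptor, was at 5.79, 6.33 and 6.27 log2 RPKM in LP monocytes and at 3.50, 3.45 and 4.25 in LP neutrophils. In tumour it was at 7.33, 6.94 and 6.01 in monocytes and 4.48, 4.04 and 3.14 in neutrophils. The groups did not overlap in either tissue. The log2 difference was -2.40 (SE 0.34, limma adjusted p = 7.67e-06) in LP and -2.87 (SE 0.34, adjusted p = 6.39e-07) in tumour. Rpl10a (chr17:28328471-28331033, plus strand), a large subunit protein near the E site, went from 2.61, 2.62 and 2.75 in LP monocytes to 0.32, 0.11 and 0.92 in LP neutrophils, and from 3.06, 3.02 and 2.35 to 0.30, -0.25 and -0.58 in tumour. Its log2 difference was -2.21 (SE 0.25, limma adjusted p = 3.14e-07) in LP and -2.99 (SE 0.25, adjusted p = 3.87e-09) in tumour. In 88.1% of its 51-base stretches it is shared with other genes, mainly its pseudogene Rpl10a-ps1, so its single value is uncertain.

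Rpl4, the most abundant, stood at 9.31, 9.08 and 9.24 log2 RPKM in LP monocytes and at 7.09, 6.88 and 7.34 in LP neutrophils, a log2 difference of -2.11 (SE 0.14, limma adjusted p = 3.29e-10). It shares 16% of its stretches with another gene. In LP, Rps4x, an X-linked small subunit protein, fell by 2.31 and Rps19, a small subunit protein whose loss causes Diamond-Blackfan anaemia, fell by 2.05 on the log2 scale. In tumour, Rps18, at the head of the small subunit, fell by 2.75 and Rpl32, of the large subunit, fell by 2.65. Each of these falls was a limma call in its tissue with groups that did not overlap. The largest estimate in tumour, for the small subunit protein Rps29 (-3.59, SE 1.25, limma adjusted p = 0.0188), rested on pool V of tumour neutrophils, where the gene had 0 reads. Without that library it was -0.96 and not called (adjusted p = 0.0776), and with donor pool as a fixed block the adjusted p was 0.112.

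**Figure D3:**
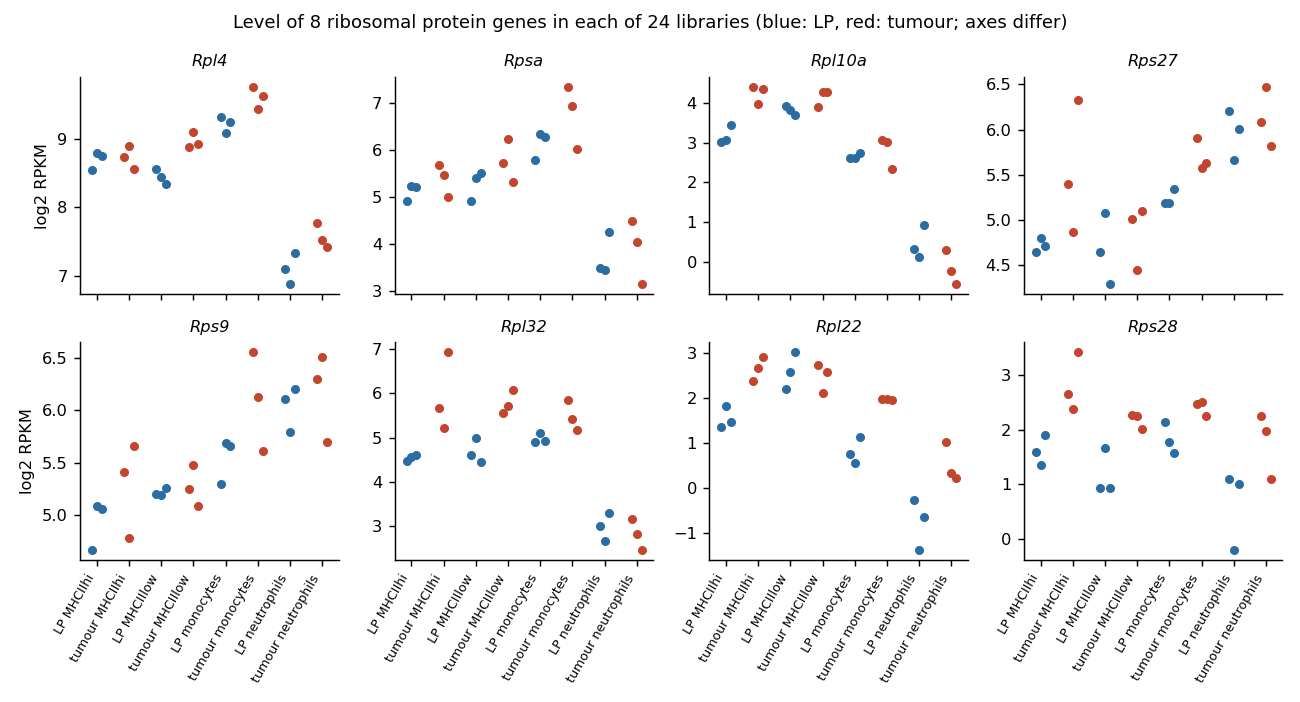
Log2 RPKM by library for ribosomal protein genes named in the text, by group; in neutrophils Rpsa and Rpl10a lie below every monocyte library of the same tissue, whereas those of Rps27 and Rps9 lie above every LP monocyte library and overlap with the monocytes in tumour.

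Not every gene of the family was called lower: of 75, 46 were in LP, 60 in tumour and 45 in both. Rps27, Rps9 and Rps13 are described here because they had the largest rises relative to the family in tumour. Rps27 (chr3:90212522-90213651, minus strand), a zinc finger protein of the small subunit, was at 5.18, 5.19 and 5.34 log2 RPKM in LP monocytes and at 6.20, 5.67 and 6.01 in LP neutrophils, with no overlap, and its rise of 0.72 (SE 0.28, limma adjusted p = 0.0337) was the 1 call upward. That call was lost without any 1 of the LP monocyte libraries or LP neutrophil pools III or V (0.60 to 0.77), under quantile normalization the difference was 0.22 (adjusted p = 0.584), and under summed reads it was -0.10 (adjusted p = 0.776). In tumour it was at 5.91, 5.58 and 5.63 in monocytes and 6.09, 6.47 and 5.81 in neutrophils, a difference of 0.42 (adjusted p = 0.205). Rps9 (chr7:3703993-3706897, plus strand), a small subunit protein that guards decoding accuracy, was at 5.29, 5.69 and 5.66 in LP monocytes against 6.11, 5.79 and 6.20 in LP neutrophils, and at 6.55, 6.12 and 5.61 against 6.30, 6.51 and 5.69 in tumour. Its differences were 0.48 (limma adjusted p = 0.0973) and 0.07 (adjusted p = 0.838), neither past the threshold. Rps13, of the small subunit, differed by 0.05 in tumour (adjusted p = 0.906). Under the deposited scaling none of these 3 genes was called lower in either tissue, which also held for other genes of the family. Rps27 shares 98.6% and Rps13 82.7% of its stretches with other genes, and Rps9 32.8%.

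The same was described relative to the family by centring each library on the median of its ribosomal protein genes, so that a value is a distance from the median member. On that scale 15 genes were higher and 17 lower in LP neutrophils than in LP monocytes, and 13 and 14 in tumour. Over all genes tested, 38.1% were higher and 11.7% lower in LP and 43.6% and 10.1% in tumour on the same scale. Relative to the family, Rps27 was higher by 1.69 in LP (SE 0.22, limma adjusted p = 1.51e-06) and by 1.88 in tumour (SE 0.22, adjusted p = 2.26e-07). Rps9 was higher by 1.46 (adjusted p = 8.2e-07) and 1.53 (adjusted p = 2.55e-07). Rpl37 in LP (1.32) and Rps13 in tumour (1.51) were next. The lowest called were Rpsa (-1.42), Rps4x (-1.34) and Rpl10a (-1.23) in LP and Rpl10a (-1.53), Rpsa (-1.41) and Rps18 (-1.29) in tumour.

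The pattern recurred between tissues, which have no library in common. Pearson's r of the centred differences in LP and tumour was 0.83 and Spearman's rho 0.83 over 75 genes, 66 of which had the same sign. The genes share libraries within a tissue and are not independent. Relative to the family, 10 of the 75 genes were called higher in both tissues, below the 33.1% of all genes on that scale. They were 10 of the 15 called higher in LP and 10 of the 13 in tumour. Over all genes 4266 were called higher in both, of 4905 in LP and 5615 in tumour. The 10 were Rpl9, Rpl10, Rpl17, Rpl21, Rpl30, Rpl37, Rps9, Rps12, Rps13 and Rps27. A further 12 of the 75 were called lower in both, against 5.2% of all genes. They were 12 of the 17 called lower in LP and 12 of the 14 in tumour. Over all genes 670 were called lower in both, of 1507 in LP and 1304 in tumour. Among the 12 were Rpl3, Rpl5, Rpl10a, Rpl13, Rpl32, Rps4x, Rps18 and Rpsa. Both lists hold small and large subunit genes. Over 75 genes, rho of the difference with mRNA length was -0.24 in LP and -0.20 in tumour, and with the shared percentage 0.10 and -0.02. The part of mRNA length and of shared stretches in these differences was not tested. Over all genes tested, neutrophil libraries held relatively more signal from genes whose length used for RPKM was at most 1000 bases. That length is not the mRNA length. The median of these minus that of longer ones was -0.55 ± 0.06 in LP neutrophils and -1.01 ± 0.11 in tumour neutrophils, and between -1.51 and -2.08 in the other groups (means of 3 libraries). Within the family a contrast by mRNA length, split at its median of 681 bases, was -1.09 and -1.17 in neutrophils and -1.05 to -1.53 elsewhere. The 2 contrasts use unlike lengths and are not directly comparable.

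**Figure D4:**
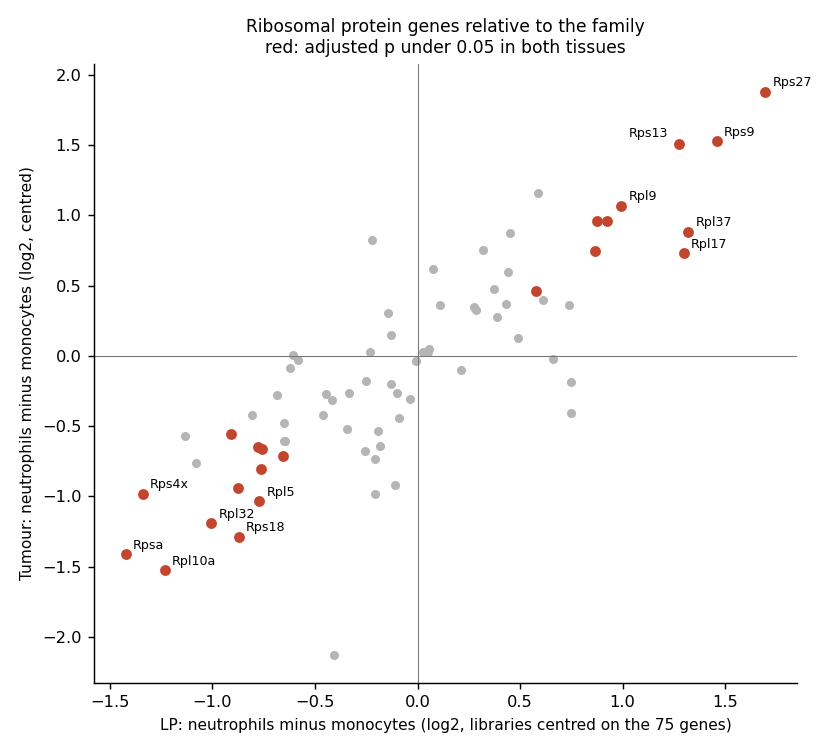
Log2 difference of neutrophils from monocytes after centring each library on its median ribosomal protein gene, LP on the x axis and tumour on the y axis, 1 point per gene (75 genes), red where called in both tissues and named where such a difference reached 1 in either; Rps27 and Rps9 lie at the upper right and Rpsa and Rpl10a at the lower left (Pearson's r = 0.83, a description only).

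Tumour MHCIIhi macrophages held more of these transcripts than LP MHCIIhi macrophages. In all, 21 of 75 genes were higher and 0 lower, against 8.01% and 11.5% of all genes tested. At an unadjusted p below 0.05 the counts were 39 and 0, with no share of all genes given beside them. The difference was above 0 for 73 genes, with a median of 0.69 against 0.00 for all genes. All 3 tumour libraries lay above all 3 LP libraries for 41 genes, against 20.9% of all genes. The calls comprised 9 of 30 small subunit genes, 11 of 42 large subunit genes and 1 of 3 stalk genes. The 1 gene past the threshold relative to the family was Rpl32, at 0.68 (SE 0.19, limma adjusted p = 0.0111).

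Rpl32 (chr6:115805505-115808747, minus strand) was at 4.48, 4.56 and 4.6 log2 RPKM in LP pools III, IV and V and at 5.68, 5.23 and 6.92 in tumour pools I, V and VII. Every tumour library was above every LP library, and pool VII was highest. The log2 difference of 1.39 (SE 0.30, limma adjusted p = 0.00255) is a 2.63-fold rise, which held without any 1 library, while a fit of the compared libraries alone gave an adjusted p of 0.0789. Rpl12, a stalk-base protein of the large subunit, rose by 1.30 (SE 0.34, limma adjusted p = 0.0104), from 0.73, 1.14 and 0.50 to 2.25, 1.89 and 2.12, although not past the threshold without LP pool V (1.15, adjusted p = 0.0521). Rpl23 (1.28), Rps24 (1.23) and Rps28 (1.20), the second mutated in some Diamond-Blackfan anaemia, were also called.

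Pool VII of tumour MHCIIhi macrophages weighed on this comparison. Without it 5 genes were called and the family median was 0.42. Leaving out LP pools III, IV or V gave 6, 11 and 11 calls, and leaving out tumour pools I or V gave 15 and 31. Rpl23, Rps24 and Rps28 were not called without pool VII (0.94, 0.67 and 0.90), Rps24 not without any 1 of the LP libraries (1.18 to 1.27), and Rps28 not without LP pools III or IV (1.19 and 1.07). A fit of the 6 compared libraries alone called 7 genes. In pool VII the members with mRNAs of at most 681 bases had a median of 3.79 log2 RPKM, against 2.91 and 2.72 in pools I and V, and longer ones 4.86 against 4.41 and 3.97, while Rplp0, at 7.62, was the lowest of its group (8.62 and 8.22 in pools I and V). Over 75 genes, rho of the tumour against LP difference with mRNA length was -0.38.

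In MHCIIlow macrophages 7 of 75 genes were higher in tumour and 0 lower, against 11.5% and 11.8% of all genes tested. The share of the family called was thus below that of all genes, although the median difference was 0.45 (0.06 for all genes) and 67 of 75 were above 0. Groups did not overlap for 37 genes that were higher in tumour, against 22.7% of all genes. Rpl13a, a large subunit protein that also silences inflammatory mRNAs, was at 3.50, 3.49 and 3.18 log2 RPKM in LP pools II, III and IV and at 4.28, 4.61 and 4.25 in tumour pools I, V and VII. Its rise of 0.99 (SE 0.20, limma adjusted p = 0.00125) held without any 1 library. Rpl32 rose by 1.11 (SE 0.30, adjusted p = 0.0109), from 4.6, 4.99 and 4.44 to 5.56, 5.72 and 6.08, and missed the threshold without tumour pool VII (0.96, adjusted p = 0.0558). Rps28 (1.01), Rpl41 (0.86), the shortest protein of the ribosome, and Rpl13 (0.71) were called with adjusted p of 0.0474, 0.0475 and 0.0363. The calls of Rpl41 and Rpl13 were lost without any 1 of the 6 libraries (0.75 to 0.93 and 0.64 to 0.78) and that of Rps28 without any but LP pool III (0.89 to 1.09), and leaving out single libraries gave 2 to 4 calls in all. With libraries centred on all genes Rps28, Rpl41 and Rpl13 also missed the threshold (0.95, 0.79 and 0.64). Relative to the family Rpl32 was higher (0.61, limma adjusted p = 0.0266) and Rpl10, which completes the peptidyl transferase centre, lower (-0.68, adjusted p = 0.0133). Rpl32, Rps28 and Rpl13a were called higher in both macrophage subsets. The comparisons share no library, but both tumour subsets came from pools I, V and VII, and LP pools III and IV gave both subsets. They also share the estimate of the spread, so they are not independent. These 3 of 75 genes were not above the 4.77% of all genes called in both. They were 3 of the 21 called in MHCIIhi and 3 of the 7 in MHCIIlow macrophages. Over all genes 614 were called in both, of 1031 in MHCIIhi and 1483 in MHCIIlow macrophages.

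In monocytes 2 of 75 genes were higher in tumour and 0 lower, against 4.86% and 4.43% of all genes tested, with a median of 0.46 (0.00 for all genes) and 69 of 75 above 0. All tumour libraries were above all LP libraries for 18 genes, against 16.2% of all genes. The calls were Rpl22, a large subunit protein that is dispensable for translation and acts in lymphocyte development, and Rpl13a. Rpl22 was at 0.76, 0.57 and 1.15 in LP and at 1.98, 2.00 and 1.97 in tumour monocytes, a rise of 1.16 (SE 0.31, limma adjusted p = 0.023). Rpl13a rose by 0.73 (SE 0.20, limma adjusted p = 0.0279). Neither was firm: Rpl22 missed the threshold without any 1 library but LP pool V (1.03 to 1.16), and Rpl13a without any but tumour pool V (0.54 to 0.76), and both missed it under summed reads (1.00, adjusted p = 0.0548, and 0.57, adjusted p = 0.0739). Without single libraries the number of calls ran from 0 (without LP pools III or IV or tumour pools I or II) to 8 (without tumour pool V, the lowest of the 3), and with libraries centred on all genes it was 9.

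Neutrophils showed no common rise. Of 75 genes 4 were higher and 1 lower in tumour, against 13.1% and 19% of all genes tested, and the family median was -0.12, as was that of all genes. The sign of the family median was not stable: it ran from -0.27 without LP pool IV to 0.09 without tumour pool V, and was 0.13 with libraries centred on all genes (which moved the median of all genes by 0.24), 0.05 under quantile normalization and -0.58 under summed reads. Rpl22 was at -0.26, -1.37 and -0.64 log2 RPKM in LP and at 1.03, 0.34 and 0.22 in tumour neutrophils, a rise of 1.29 (SE 0.31, limma adjusted p = 0.00374) that held without any 1 library and was not called in a fit of neutrophils alone (adjusted p = 0.124), with voom (adjusted p = 0.149) or under summed reads (0.82, adjusted p = 0.0509). Rpl4 (0.47), Rpl7 (0.70) and Rps28 (1.14) were also higher, the first without overlap between groups. These 3 calls were lost without LP pool IV (0.36, 0.50 and 0.72) or tumour pool I (0.37, 0.53 and 0.90), and those of Rpl7 and Rps28 also without tumour pool II (0.67 and 1.04). Under summed reads the Rpl4 difference was 0.0020 (adjusted p = 1), that of Rpl7 0.23 and that of Rps28 0.67, none of them called, and under quantile normalization Rpl4 was at 0.18 (adjusted p = 0.459). Rpl28 was lower, from 1.85, 1.71 and 1.66 to 0.76, 1.49 and -0.31 (-1.09, SE 0.35, limma adjusted p = 0.0232), and was not called without tumour pool V (-0.61) or LP pool III (-1.04), nor with libraries centred on all genes (-0.85) or under quantile normalization (-0.74). After centring on the family, 5 genes were higher and 1 lower, against 10.1% and 10.1% of all genes. Rpl28 (-0.92) was the 1 downward, and Rpl22 (1.46), Rps28 (1.31) and Rpl7 (0.87) were the 3 with the largest rises.

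**Figure D5:**
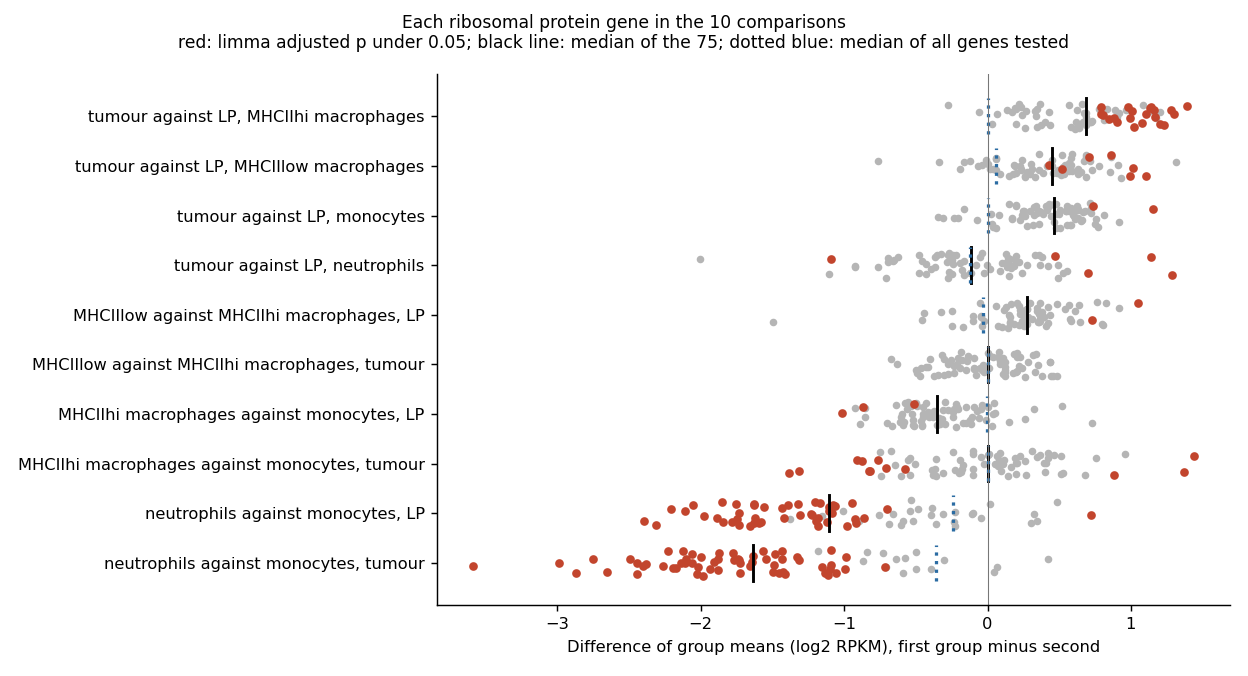
Log2 differences of the 75 tested ribosomal protein genes in each of the 10 comparisons, 1 point per gene, with calls (limma adjusted p below 0.05) in red, the family median as a black line and the median of all genes tested as a dotted blue line; family medians run from -1.64 for tumour neutrophils against monocytes to 0.69 for tumour against LP MHCIIhi macrophages.

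Whether the tumour difference itself changed between populations was tested as a difference of differences. None of the 75 genes passed for MHCIIlow minus MHCIIhi macrophages, monocytes minus MHCIIhi macrophages or neutrophils minus monocytes (limma), where 1.46%, 5.76% and 9.11% of all genes tested did, in either direction. At an unadjusted p below 0.05 there were 4, 5 and 13 genes, and voom on the recovered reads called 1, 2 and 0. No share of all genes is given beside these counts. The family medians of these differences were -0.27, -0.26 and -0.45. Pool VII of tumour MHCIIhi macrophages carried the first and second of these: without it they were -0.018 and -0.0063, and without pool V of the same group -0.47 and -0.48. The third ran from -0.66 without LP neutrophil pool IV to -0.29 without tumour neutrophil pool V. The nearest to the threshold was Rpl12 for monocytes minus MHCIIhi macrophages (-1.61, SE 0.49, limma adjusted p = 0.0567). With sizes set to summed reads, 9 genes were called lower for neutrophils minus monocytes and the median was -0.76.

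The 2 macrophage subsets differed little. In LP, 2 of 75 genes were higher and 0 lower in MHCIIlow than in MHCIIhi cells, against 2.13% and 5.57% of all genes tested, with a median of 0.27 (-0.03 for all genes), and 24 genes were higher without overlap and 2 lower, against 14.6% and 17.9% of all genes. Rpl5 was at 2.94, 2.94 and 3.0 in MHCIIhi and 3.60, 3.62 and 3.85 in MHCIIlow macrophages, a rise of 0.73 (SE 0.20, limma adjusted p = 0.0273), and Rpl22 rose by 1.05 (SE 0.31, adjusted p = 0.0447). Both depended on single libraries: Rpl5 was not called without any but MHCIIlow pool III (0.65 to 0.77) and Rpl22 not without any but MHCIIlow pool II (0.84 to 1.18). With donor pool as a fixed block, 1 gene was called and Rpl22 was not (1.31, adjusted p = 0.151). In tumour, 0 genes were called in either direction by limma, against 0.567% and 0.567% of all genes, with a median of 0.01. At an unadjusted p below 0.05, 0 were higher and 1 lower, and the smallest adjusted p was 0.319. The sign of that median depended on 1 library, being 0.25 without MHCIIhi pool VII and -0.20 without MHCIIhi pool V. Over 75 genes rho of the difference with mRNA length was 0.51.

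Between LP MHCIIhi macrophages and LP monocytes few genes of the family were called: 3 were lower and 0 higher in macrophages, against 10.8% and 9.26% of all genes tested, and leaving out single libraries gave 0 to 2 calls. The median difference was -0.35 (0.00 for all genes) and 10 of 75 genes were above 0. All macrophage libraries were below all monocyte libraries for 27 genes, against 21.8% of all genes. Rpl4 was at 8.55, 8.79 and 8.75 in macrophages and 9.31, 9.08 and 9.24 in monocytes (-0.52, SE 0.14, limma adjusted p = 0.0141). Rpsa fell by 1.02 (adjusted p = 0.0422) and Rps14, whose loss underlies the anaemia of the 5q- syndrome in people, by 0.87 (adjusted p = 0.0409). Rpl4 was not called without pool III of either group (-0.44 and -0.46), Rpsa not without any 1 library but monocyte pool III (-0.91 to -1.08), and Rps14 not without any 1 of the 6 (-0.79 to -0.92) nor under quantile normalization (-0.76, adjusted p = 0.0713). A fit with donor pool as a fixed block called 9 genes lower and a fit of the compared libraries alone 16. Centring on the family left Rpl10a higher in macrophages (0.83, SE 0.25, limma adjusted p = 0.0348).

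In tumour the same pair of populations gave fewer calls in the family than the share over all genes, in each direction. Of 75 genes 3 were higher and 9 lower in MHCIIhi macrophages, against 13.6% and 18.5% of all genes tested. The median difference from monocytes was 0.00, as for all genes, but changed sign with single libraries left out (-0.35 to 0.21). Rpl10a was at 4.41, 3.98 and 4.36 log2 RPKM in macrophages and 3.06, 3.02 and 2.35 in monocytes (1.44, SE 0.25, limma adjusted p = 0.000118), and Rpl12 at 2.25, 1.89 and 2.12 against 1.08, 0.81 and 0.26 (1.37, SE 0.34, adjusted p = 0.00412). Rpl30 rose by 0.88 (adjusted p = 0.0179), but not past the threshold without macrophage pool VII (0.62) or monocyte pool II (0.74). In the other direction, Rplp0 was at 8.62, 8.22 and 7.62 in macrophages against 9.77, 9.49 and 9.13 (-1.31, SE 0.26, limma adjusted p = 0.000549), Rpl4 at 8.73, 8.89 and 8.56 against 9.75, 9.43 and 9.62 (-0.87, SE 0.14, adjusted p = 7.1e-05), and Rpsa at 5.67, 5.47 and 4.99 against 7.33, 6.94 and 6.01 (-1.39, SE 0.34, adjusted p = 0.00388). None of these 3 pairs of groups overlapped. Under quantile normalization the Rpl4 difference was -0.41 and not called (adjusted p = 0.0516). Rpl7 (-0.83) and Rpl9 (-0.57) were lower as well, lost without monocyte pool I (-0.69 and -0.41) and, for Rpl9, without macrophage pools I or V (-0.49 and -0.51). Both were also lost under quantile normalization (-0.51 and -0.46), and Rpl9 under summed reads (-0.30).

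Relative to the family, 2 genes were higher and 15 lower in tumour MHCIIhi macrophages than in tumour monocytes, against 9.03% and 13.8% of all genes on that scale. Rpl10a (1.36) and Rpl12 (1.28) were the genes above, and Rpsa (-1.47), Rplp0 (-1.40) and Rpl8 (-1.0) the lowest. The number called lower without centring also hung on single libraries, from 3 to 15, and was 3 with donor pool as a fixed block, where Rpsa (-1.10, adjusted p = 0.0917) and Rpl30 (0.54, adjusted p = 0.106) were not called. The family median was -0.35 without macrophage pool VII and 0.21 without macrophage pool V. Over 75 genes rho of the difference with mRNA length was -0.46, and the part of mRNA length in these differences was not tested.

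Over all 8 groups and relative to the family, Rpl10a had the largest range of group means, 2.92 on the log2 scale, from -2.42 in tumour neutrophils to 0.50 in LP MHCIIlow macrophages. Rps27 (2.84) and Rps9 (2.47) were at their highest in tumour neutrophils, 3.88 and 3.92 above the median member, and at their lowest in tumour MHCIIlow macrophages. Rps29 had a range of 2.59, which includes the library with 0 reads. Rpl22 (2.45) ran from -3.17 in LP neutrophils to -0.72 in LP MHCIIlow macrophages. Among the steadiest were Rplp1, a flexible stalk protein (0.45), Rps23, of the decoding centre (0.52), Rpl13a (0.60) and Rps21 (0.63).

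Ribosomal proteins and paralogs whose symbols the rule does not take gave a mixed account. Of 14 listed, 11 were in the table and 9 tested, and in neutrophils against monocytes 5 fell and 1 rose in LP and 6 fell and 0 rose in tumour. Rack1, a scaffold on the small subunit, fell by 2.21 in LP (limma adjusted p = 6.48e-07) and by 2.54 in tumour (adjusted p = 8.41e-08), and Rps3a1, a small subunit protein, fell by 1.58 and 1.73. Fau, which encodes a ubiquitin-like protein fused to small subunit protein S30, was at 4.30, 4.98 and 4.80 in LP monocytes and 5.66, 5.29 and 5.73 in LP neutrophils, a rise of 0.87 (SE 0.28, limma adjusted p = 0.0143), and in tumour differed by 0.39 (adjusted p = 0.252). Of 34 tested ribosomal protein pseudogenes, 8 rose and 9 fell in LP (median -0.17) and 5 rose and 13 fell in tumour (median -1.58), where 24.1% of all genes rose and 30.4% fell in LP and 23.3% and 34.9% in tumour.

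Other genes of the translation machinery were counted from fixed lists. Of 17 translation factors and related genes whose mRNAs carry the pyrimidine start, 15 fell and 0 rose in neutrophils against monocytes in each tissue, with medians of -1.43 and -1.56. Eif3e, a subunit of an initiation factor, fell by 2.89 and 2.97, and Eef1a1, the elongation factor that delivers tRNA, by 1.48 and 1.56. Tpt1 (0.13 and 0.14) and Pabpc1 (-0.24 and 0.29) were not called. Of 33 ribosome assembly factors, 23 fell and 1 rose in LP and 24 and 1 in tumour (medians -1.74 and -1.61), with Fbl, which methylates rRNA, lower by 1.74 and 2.22 on the log2 scale and Sbds, which frees the new large subunit for joining, higher by 0.46 and 0.81. Of 73 mitochondrial ribosomal proteins tested, 35 fell and 1 rose in LP and 55 and 0 in tumour (medians -1.14 and -1.96). RNA polymerase I genes (15) gave 5 lower and 2 higher in LP and 8 and 2 in tumour, and 21 genes of translation control 8 and 4, and 10 and 3. Over all genes 30.4% were lower and 24.1% higher in LP and 34.9% and 23.3% in tumour, so the falls of RNA polymerase I genes in LP were near the share of all genes.

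The same lists were counted in the other comparisons. For tumour against LP MHCIIhi macrophages, 1 of 17 pyrimidine-start genes rose (Eif4b, 0.56, limma adjusted p = 0.00891). Of 33 assembly factors 0 rose and 2 fell, and of 73 mitochondrial ribosomal proteins 0 rose and 2 fell. Over all genes 8.01% rose and 11.5% fell. The medians of these lists were 0.07, -0.28 and 0.08, beside 0.69 for the ribosomal proteins. In MHCIIlow macrophages they were 0.35, 0.02 and 0.22, beside 0.45. In monocytes they were 0.26, -0.22 and 0.22, beside 0.46, and in neutrophils 0.25, -0.27 and -0.47, beside -0.12. For MHCIIhi macrophages against monocytes the assembly factors were higher in macrophages, 9 of 33 in LP with 0 lower and 14 in tumour with 1 lower (medians 0.92 and 0.99), against 9.26% and 13.6% of all genes higher, where the ribosomal proteins had medians of -0.35 and 0.00. Nop56, a core protein of box C/D RNPs, rose by 1.14 (limma adjusted p = 0.000298) and 1.29 (adjusted p = 3.14e-05), and Gnl3, nucleostemin, by 1.15 and 2.90. Of 21 genes of translation control, 3 were higher and 3 lower in tumour MHCIIhi macrophages than in tumour monocytes (median 0.02). Over all genes 13.6% were higher and 18.5% lower. The transcription factor Myc, 1 of the 3 higher, differed by 3.21 (limma adjusted p = 8.05e-06). Of 15 RNA polymerase I genes, 0 were higher and 1 lower (median 0.63). Between tumour and LP neutrophils 7 of 33 assembly factors and 16 of 73 mitochondrial ribosomal proteins fell and 1 of each rose, where 19% of all genes fell and 13.1% rose, so the falls were near the share of all genes.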

How the data were processed

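Sorted LP and tumour myeloid cells were profiled by paired-end RNA-seq of SMARTSeq v2 libraries. Per the submitters' processing notes and the study's methods, the authors aligned reads to GRCm38/mm10 with STAR 2.3, counted genes with featureCounts 1.5 and GENCODE annotation, removed low genes and deposited log2 RPKM. The deposited log2 RPKM values are not counts. Whole reads were recovered from them (100% of 415224 values within 0.01 of a whole read, prior count 0.25), giving depth and the reads behind a value; spike-in genes in the table numbered 0. Symbols came from GENCODE M21 for 17190 of the 17301 genes, transcript starts from RefSeq (GRCm38.p6).

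All 24 libraries were fitted with limma 3.58.1 (trend, 1 mean per group, R 4.3.3) on all 12878 genes with a group mean of at least 1 RPKM, with Benjamini-Hochberg adjustment over them and a threshold of 0.05, two-sided. The fit was tested on simulated data. Genes named are, per comparison, up to 5 largest rises and falls among calls without overlap, up to 3 each way after centring on the members, the 5 highest and 5 lowest by level, and the 5 most and least variable relative to the family; Rpl11 and genes only listed by name were chosen after their values were seen. Some genes that this rule takes are not reported here. The genes of the family and the lists were chosen with earlier results of these data known.

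The labels give donor pools, and the same numeral within a tissue is 1 donor label. Deviations from group means correlated at -0.066 to 0.255 (median 0.0169) over 29 pairs of the same pool and -0.223 to 0.138 (median -0.0114) over 79 other pairs, and the fitted correlation within pools was 0.0476. Alternatives were library centring on all genes or on the members, summed reads as library sizes, quantile normalization, log2(RPKM + 1), filters of 5 RPKM or none, only the compared libraries, the donor pool as a block, limma voom on recovered reads, and each library left out.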

Additional observations from a re-analysis of the deposited data

How the results depend on the processing

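With libraries centred on the median of all genes, genes called higher numbered 3 for tumour against LP in MHCIIlow macrophages, 9 in monocytes, 2 for LP neutrophils against monocytes and 1 in tumour, where the median was -1.19; genes called lower numbered 0 for tumour against LP neutrophils and 16 for tumour MHCIIhi macrophages against monocytes. With library sizes as summed reads, genes higher numbered 0 for tumour against LP in monocytes and 0 in neutrophils, where 17 were lower and the median was -0.58. They numbered 4 for LP MHCIIlow against MHCIIhi macrophages, 5 for tumour MHCIIhi macrophages against monocytes with 4 lower, and 0 for LP neutrophils against monocytes, where the median was -1.93, with -2.77 in tumour. The tumour difference was called different, and lower, in 2 genes for monocytes minus MHCIIhi macrophages and in 9 for neutrophils minus monocytes, with a median of -0.76. Rps27 reversed to -0.10 between LP neutrophils and monocytes under summed reads; the other 41 named results kept their sign in every fit, with 540 values on the same side of the threshold and 153 no longer past it. Quantile normalization gave 11 higher for tumour against LP in MHCIIlow macrophages, 0 lower in neutrophils, 2 lower for tumour MHCIIhi macrophages against monocytes and 0 higher for LP neutrophils against monocytes. Centring on the members, which fixes their median, gave for tumour against LP 1 higher in MHCIIhi macrophages, 1 higher and 1 lower in MHCIIlow macrophages and 0 higher in monocytes, and for LP MHCIIlow against MHCIIhi macrophages 0 higher. It gave 1 higher and 0 lower for LP MHCIIhi macrophages against monocytes and 15 lower in tumour, and for neutrophils against monocytes 15 higher and 17 lower in LP and 13 and 14 in tumour.

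On log2(RPKM + 1), 5 genes were lower for LP MHCIIhi macrophages against monocytes, the tumour neutrophil against monocyte median was -1.24 and 2 genes were lower for the tumour difference of monocytes minus MHCIIhi macrophages. A filter of 5 RPKM gave 5 lower for LP MHCIIhi macrophages against monocytes, and no filter gave 4 higher for tumour against LP MHCIIlow macrophages and 1 for LP MHCIIlow against MHCIIhi macrophages. A fit of only the compared libraries gave for tumour against LP 7 higher in MHCIIhi and 14 in MHCIIlow macrophages, 1 in monocytes and 0 higher and 0 lower in neutrophils. It gave 1 higher for LP MHCIIlow against MHCIIhi macrophages, 1 higher and 16 lower for LP MHCIIhi macrophages against monocytes, 4 lower in tumour, and 1 lower for the tumour difference of monocytes minus MHCIIhi macrophages. Voom on recovered reads gave 8 higher for tumour against LP in monocytes, 1 higher and 0 lower in neutrophils, 9 lower for LP and 14 for tumour MHCIIhi macrophages against monocytes, and 1 and 2 lower for the tumour differences of MHCIIlow and of monocytes minus MHCIIhi macrophages. The causes of these moves were not tested. Shares of all genes called are not given beside these counts, which show only how the calls moved with the processing.

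With the donor pool as a fixed replicate block, 1 gene was higher for LP MHCIIlow against MHCIIhi macrophages, 2 for LP neutrophils against monocytes, and 9 and 3 were lower for LP and tumour MHCIIhi macrophages against monocytes. As a random block it gave 1 lower for the tumour difference of monocytes minus MHCIIhi macrophages. The block moved no other count by over 1.5 times; the named calls it ended are those given above and those of Rpl8 and Rpl9 between tumour MHCIIhi macrophages and monocytes (-0.75 and -0.59).

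Without 1 library, genes higher for tumour against LP ran from 5 to 31 in MHCIIhi macrophages, 2 to 4 in MHCIIlow macrophages, 0 to 8 in monocytes and 1 to 6 in neutrophils, where 0 to 4 were lower. They ran from 0 to 1 for LP MHCIIlow against MHCIIhi macrophages and 0 to 1 for LP neutrophils against monocytes. Genes lower ran from 0 to 2 for LP and 3 to 15 for tumour MHCIIhi macrophages against monocytes, and 0 to 3 for the tumour difference of neutrophils minus monocytes. The median ran from -0.35 to 0.21 for tumour MHCIIhi macrophages against monocytes and from -1.82 to -1.32 for tumour neutrophils against monocytes.

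As a share of summed reads the ribosomal proteins took 0.329% in LP MHCIIhi macrophages, 0.404% in LP MHCIIlow macrophages, 0.451% in LP monocytes, 0.104% in LP neutrophils, and 0.454%, 0.540%, 0.571% and 0.0829% in tumour. Without the 50 highest other genes the shares were 0.886%, 0.953%, 1.14% and 0.261% in LP and 1.23%, 1.34%, 1.5% and 0.232% in tumour. With 3 pools a group and few reads on some members, single low genes such as Rps29 and Rpl36a are limited by counting.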
